A study of Arabidopsis thaliana with 20 samples.

Results

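Ribosome-bound RNA of the root endodermis was set against that of the root vascular tissue in Arabidopsis thaliana seedlings kept in air. The comparison takes 4 of the 20 arrays of the study, chosen by their labels: 2 arrays of root tips from the line pSCR:His6FLAG-RPL18B and 2 from the line pWOL:His6FLAG-RPL18B. Both lines are in the Col-0 background, and both carry the epitope-tagged ribosomal protein RPL18B, so the tag itself does not separate the groups. Seedlings were 7 days old and were held for 2 h in air as the controls of an argon hypoxia treatment, after which the terminal 1 cm of the root was cut. Ribosomes were pulled down through the tag and the RNA bound to them was hybridised to Affymetrix ATH1 arrays. Each array is therefore meant to read transcripts loaded on ribosomes, not all RNA of the tip. The cells meant are those in which the promoter had made the tagged protein. The part of RNA from other cells was not tested. The study also holds another vascular line (pSHR), a broadly expressed line (p35S), total RNA from the p35S lysates, and all of these again after hypoxia; 4 hypoxia arrays of the same pSCR and pWOL lines and 2 pSHR arrays in air are used below for comparison.

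The endodermis is the innermost layer of the root cortex and surrounds the vascular cylinder. As it matures, its cells lay down the Casparian strip, a ring of lignin in the wall that seals the space between neighbouring cells and so controls what passes from soil to xylem. Lignin there is polymerised by wall peroxidases with oxidases and dirigent proteins at a scaffold of membrane proteins, and the integrity of the ring is sensed by the receptor kinase GSO1 (also called SGN3), whose ligands are small peptides made in the vascular cylinder. SCR is a transcription factor of the endodermis and quiescent centre, and WOL is a cytokinin receptor of the vascular cylinder; their promoters drive the tagged protein here. The probe sets of SCR and WOL themselves were not analysed here.

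The 2 lines differed widely. Of 22746 tested probe sets, 2037 (8.96%) differed at an adjusted p below 0.05 by limma with Benjamini-Hochberg adjustment; such probe sets are called below. Of these, 972 (4.27%) were higher and 1065 (4.68%) lower in pSCR, and 807 and 850 of them differed by at least 1 on the log2 scale, that is, by 2-fold or more. Among the 13513 probe sets that the annotation gives to 1 gene, 1058 (7.83%) were called, 434 (3.21%) higher and 624 (4.62%) lower; the named genes come from these. In every called probe set the 2 pSCR values lay entirely above or entirely below the 2 pWOL values, which was also so for 9809 probe sets that were not called. The groups have 2 arrays each, and the count depended on each of them: it was 488 without pSCR array 1, 989 without pSCR array 2, 579 without pWOL array 1 and 474 without pWOL array 2. The array medians were 6.41 and 6.43 in pSCR and 6.53 and 6.51 in pWOL. The higher calls were 47.7% of all calls on the deposited scale, and with each array centred on its median 1375 were higher and 839 lower, so the balance of the 2 directions depends on the scaling.

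**Figure D1:**
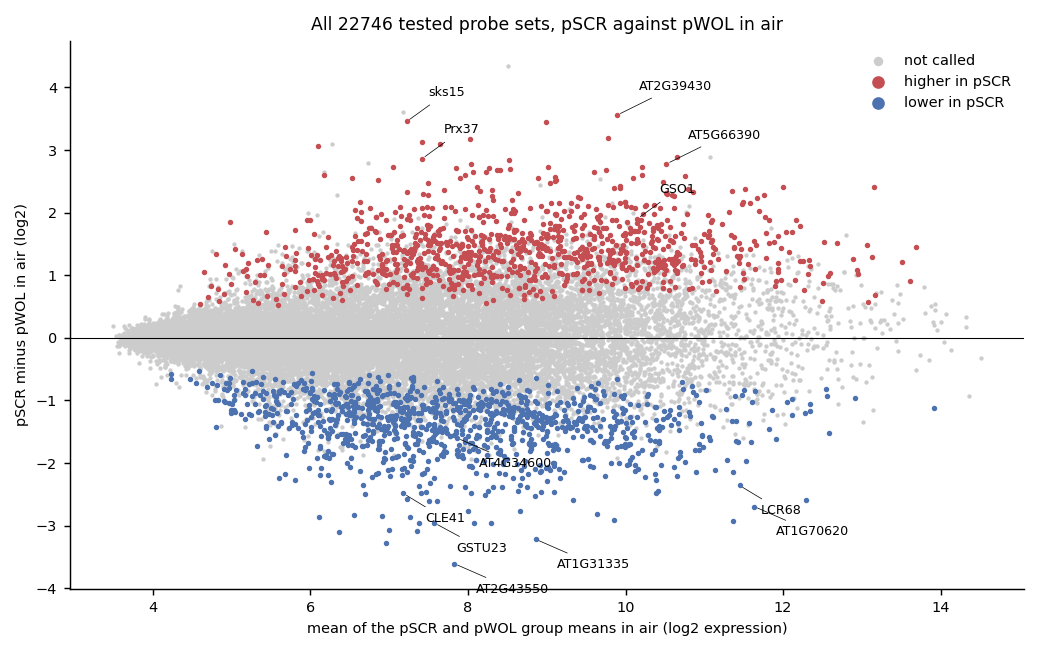
Each point is 1 of the 22746 tested probe sets, with the mean of the pSCR and pWOL levels in air on the x axis and the pSCR minus pWOL difference on the y axis, both in log2 units. The 972 probe sets called higher in pSCR are red, the 1065 called lower are blue, and some genes described in the text are labelled.

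Several enzymes of the Casparian strip and its receptor kinase were higher in pSCR. Of the 33 genes of an endodermis and Casparian strip marker list, 12 were measured by a named probe set; 6 were higher in pSCR, 1 was lower and 5 were not called, against 3.21% higher and 4.62% lower among all single-gene probe sets. The median difference of the 12 was 1.61, and that of all single-gene probe sets was -0.02. This list and the other marker lists below were chosen with earlier results of these data known. Their counts are therefore a description and not an independent test. Most of these genes appear in the supplied tables by locus code alone, and the short names given with them are those of the list. Levels are log2 expression, differences are pSCR minus pWOL on the log2 scale, and errors beside differences are standard errors of the model.

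AT2G39430, entered in the list as the dirigent protein DIR9, had levels of 12.33 and 11.02 in the pSCR arrays and 8.05 and 8.18 in the pWOL arrays. The groups were far apart, and its difference of 3.56 ± 0.64 (11.8-fold, limma adjusted p = 0.00786) was the largest of any named gene higher in pSCR. Another dirigent protein, AT4G13580 (DIR18), read 11.45 and 10.78 in pSCR and 9.27 and 8.76 in pWOL, a difference of 2.09 ± 0.54 (adjusted p = 0.0309). Dirigent proteins guide the coupling of phenolic radicals into lignans and lignin-like polymers.

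Peroxidases, which oxidise lignin monomers in the wall, formed another group. AT5G66390 (PRX72) read 12.62 and 11.20 in pSCR and 9.25 and 9.01 in pWOL, a difference of 2.78 ± 0.61 (6.86-fold, adjusted p = 0.0159). AT1G44970 (PER9) read 9.95 and 8.45 in pSCR and 6.05 and 6.92 in pWOL, a difference of 2.72 ± 0.76 (adjusted p = 0.0411). AT4G11290 (PER39) read 9.73 and 8.72 against 7.50 and 7.07, a difference of 1.94 ± 0.46 (adjusted p = 0.0214). In all 3, as in every probe set called higher, the lower pSCR array was above the higher pWOL array.

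The receptor of the pathway and its ligand went opposite ways. GSO1, the receptor kinase that monitors the closure of the strip, read 11.38 and 10.82 in pSCR and 9.23 and 9.17 in pWOL, a difference of 1.90 ± 0.33 (3.74-fold, adjusted p = 0.00652). AT4G34600, entered as CIF2, one of the sulfated peptides that GSO1 binds, read 7.46 and 6.66 in pSCR and 8.82 and 8.51 in pWOL, a difference of -1.60 ± 0.36 (adjusted p = 0.0181). CIF2 is known as a peptide made in the vascular cylinder and perceived in the endodermis, so its known site of expression is not the endodermis. Whether this accounts for its direction was not tested. In pSHR, AT4G34600 read 7.89 and 7.91, and its pSCR minus pSHR difference of -0.83 was not called. Its p35S mean of 8.97 was above its pWOL mean of 8.66. In hypoxia its pSCR minus pWOL difference was -0.74 and not called.

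Of the remaining 5 members, AT1G61590 (SGN1), a cytoplasmic kinase that acts with GSO1, read 12.73 and 11.65 in pSCR and 11.02 and 10.72 in pWOL, a difference of 1.32 ± 0.51 that was not called (adjusted p = 0.129). The other 4 were JKD (-0.68), AT4G28100 (EN7, -0.22), AT1G14580 (BLJ, -0.05) and AT5G41920 (SCL23, 0.04). JKD and BLJ are zinc finger regulators, and SCL23 a GRAS protein, of endodermal patterning. In AT4G28100, AT1G14580 and AT5G41920 the arrays of the 2 lines overlapped, and in JKD they read 9.08 and 8.52 against 9.11 and 9.86. None of the 3 measured transcription factors of the list was therefore called.

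For the 6 genes higher in pSCR, the pSCR mean was also the highest of the 5 RNA populations in air in 6 of 6. The choice of these genes on the same pSCR arrays favours this rank, and its share over all called probe sets was not counted. Array 1 was above array 2 in 6 of 6 in pSCR (by at least 0.56) and also in 6 of 6 in pSHR, while over all tested probe sets pSCR array 1 was above array 2 in 49.1%. The calls were lost without pSCR array 1, where the differences of the 6 were still 1.44 to 2.90. That fit leaves 1 pSCR array, so dependence on array 1 and loss of precision cannot be told apart. Without pSCR array 2, 5 of the 6 were called, and without pWOL array 1 or 2 only AT2G39430 and GSO1 were. AT4G34600 kept its call without pSCR array 1 and lost it without any other single array, where its difference was -1.20 to -1.75.

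**Figure D2:**
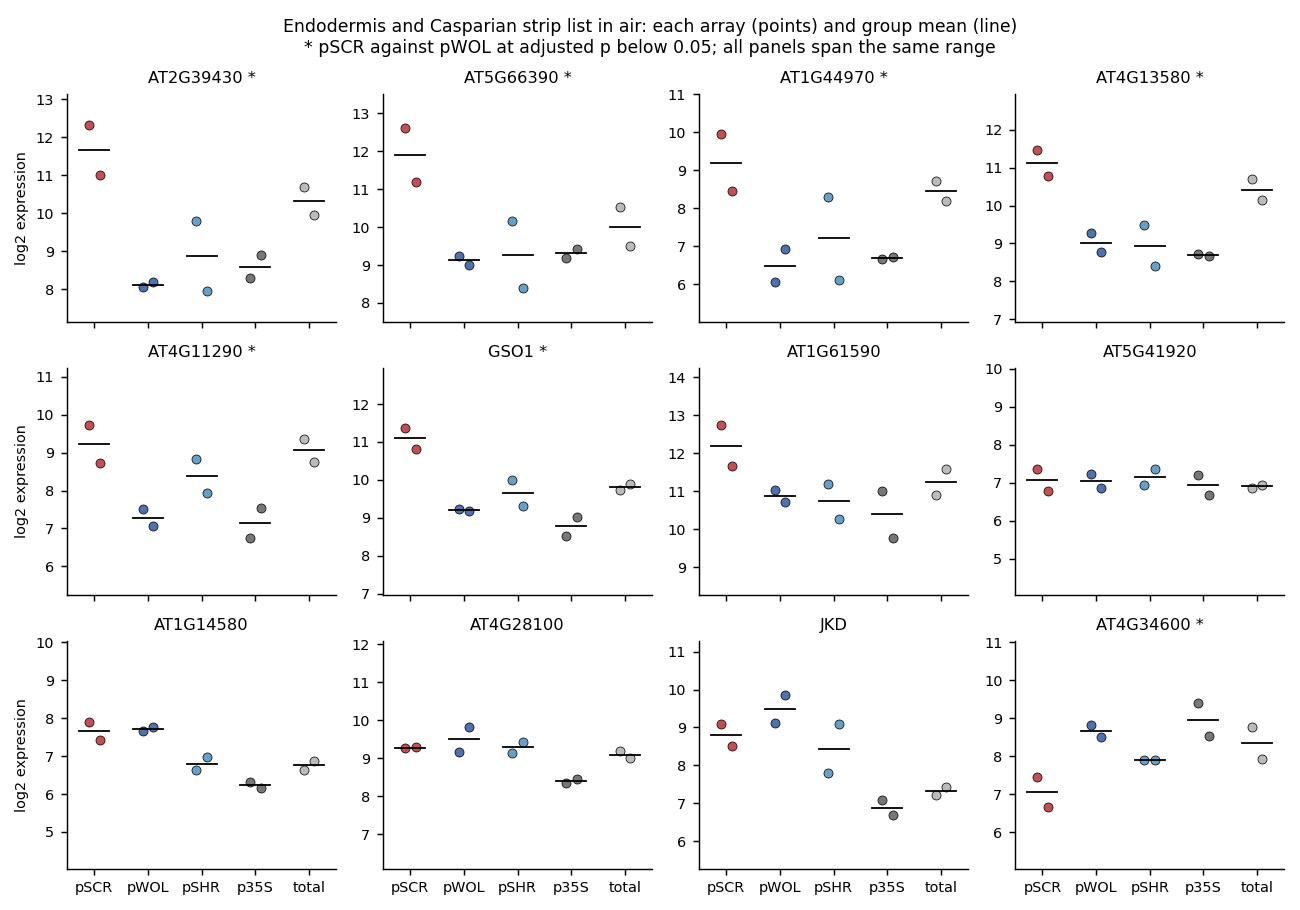
Log2 expression in air of the 12 measured genes of the endodermis and Casparian strip list in each of the 5 RNA populations; points are single arrays (2 per population), lines are group means, and all panels span the same range. In the 6 panels of genes higher in pSCR both pSCR arrays lie above both pWOL arrays, as in every probe set called higher. The first pSCR array lies above the second there, whereas AT4G34600 shows the opposite order of the 2 lines.

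The wider peroxidase and dirigent families were counted after their values were seen, from family lists by locus code. Of 55 measured class III peroxidases of 73 listed, 9 were higher and 4 lower, against 3.21% higher and 4.62% lower among all single-gene probe sets, and the family median was 0.04, close to the -0.02 of all single-gene probe sets. Prx37 read 9.20 and 8.50 in pSCR and 5.89 and 6.09 in pWOL, a difference of 2.86 ± 0.43 (adjusted p = 0.00425). AT1G68850 read 10.53 and 9.49 against 8.11 and 7.86, a difference of 2.03 ± 0.33 (adjusted p = 0.00523). These 2 were the only peroxidases among the 13 called that kept their call without any one of the 4 arrays. The 4 peroxidases with more RNA in pWOL were AT1G71695 (-1.88), AT2G22420 (-1.45), AT5G40150 (-1.26) and AT2G41480 (peroxidase 25, -0.94). AT1G71695 read 7.10 and 6.34 in pSCR and 8.50 and 8.68 in pWOL.

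Of 13 measured dirigent proteins of 23 listed, 3 were higher and 1 lower, against the same shares of 3.21% and 4.62%. Besides the 2 on the marker list, AT4G11190 read 12.17 and 11.18 in pSCR and 9.28 and 9.48 in pWOL, a difference of 2.29 ± 0.47 (adjusted p = 0.0126) that was called without pSCR array 2 but not without any other array, where its adjusted p reached 0.103. The dirigent protein lower in pSCR was AT1G58170, at -0.72 ± 0.17 (adjusted p = 0.023). A pair of enzymes of phenylpropanoid metabolism, also picked after their values were seen, had the same direction as the barrier genes. CCR2, a cinnamoyl-CoA reductase at the entry to monolignol synthesis, read 9.63 and 7.84 in pSCR and 6.05 and 6.46 in pWOL, a difference of 2.48 ± 0.53 (adjusted p = 0.0147). UGT72E3, a glucosyltransferase of monolignols, read 9.73 and 9.13 against 7.42 and 7.82, a difference of 1.81 ± 0.41 (adjusted p = 0.0193). Without pSCR array 1 the differences of these genes were 1.58 and 1.51, and neither was called then or without pWOL array 1 or 2 (adjusted p up to 0.128). HCT, the 1 measured gene of 14 on the phenylpropanoid list, was at -0.34 and not called, and none of the 18 suberin genes was measured by a named probe set.

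Among the 15 named genes with the largest differences towards pSCR, which lay between 2.61 and 3.56, several were not on the endodermis and Casparian strip list. The sks15 gene (SKU5 similar 15), of a family of wall proteins related to multicopper oxidases, read 8.51 and 9.39 in pSCR and 5.62 and 5.38 in pWOL, a difference of 3.46 ± 0.75 (adjusted p = 0.0154). Its p35S arrays read 10.02 and 10.76, above both pSCR arrays, so pSCR was not the population with most of this RNA. AT3G22620 read 12.70 and 11.51 in pSCR and 9.38 and 9.05 in pWOL, a difference of 2.89 ± 0.51 (adjusted p = 0.00739). AT4G21820 read 7.85 and 7.41 against 4.50 and 4.64, a difference of 3.06 ± 0.52 (adjusted p = 0.0062), and its pSHR, p35S and total RNA arrays gave no mean above pSCR. The others were rpoA (3.10), AT4G35850 (2.85), AT5G20950 (2.78), AT5G45480 (2.70), AT3G55410 (2.69), AT3G05060 (2.66), AT1G30750 (2.64) and AT4G17280 (2.61), with AT2G39430, Prx37, AT5G66390 and AT1G44970 described above. The pSCR mean was the highest of the 5 populations in air for 13 of the 15, and the pWOL mean the lowest for 13 of the 15. Both ranks are favoured by the choice of the genes on the same arrays. When an array was left out, the genes still called were 4 of 15 without pSCR array 1, 12 without pSCR array 2, 7 without pWOL array 1 and 6 without pWOL array 2. Among them sks15, rpoA and AT5G45480 lost their calls whichever of the 4 arrays was left out (adjusted p up to 0.104). The rpoA gene encodes a subunit of the plastid RNA polymerase, and of 69 plastid genes measured it was the 1 called. Their median difference was 0.19, and 9 of them were higher in pSCR by more than 1. Among these, atpE read 11.76 and 9.61 in pSCR and 7.26 and 5.41 in pWOL, a difference of 4.35 that was not called. The rpoA mean in pWOL was 6.10 in air and 9.01 in hypoxia. Whether RNA of plastid genes was bound to the tagged ribosomes was not tested.

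The 15 named genes with the largest differences towards pWOL lay between -3.61 and -2.57. AT2G43550 read 5.57 and 6.48 in pSCR and 9.85 and 9.41 in pWOL, a difference of -3.61 ± 0.35 (12.2-fold, adjusted p = 0.000511). GSTU23, a tau-class glutathione transferase, read 5.99 and 6.21 against 8.81 and 9.30, a difference of -2.96 ± 0.26 (adjusted p = 0.000262). AT1G31335 read 7.39 and 7.11 against 10.58 and 10.35, a difference of -3.22 ± 0.39 (adjusted p = 0.00191). All 3 were called without any one of the 4 arrays. Their p35S arrays lay near the pWOL arrays, at 9.61 and 9.66 for AT2G43550, 9.24 and 9.40 for GSTU23, and 10.73 and 10.31 for AT1G31335.

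Other genes were high in pWOL against every other population. AT3G26350 read 4.67 and 4.97 in pSCR and 7.63 and 8.19 in pWOL, a difference of -3.09 ± 0.33 (adjusted p = 0.00087), with pSHR and p35S arrays between 5.81 and 6.34. AT1G70620 read 10.47 and 10.10 in pSCR and 12.82 and 13.13 in pWOL, a difference of -2.69 ± 0.53 (adjusted p = 0.011). Its p35S arrays read 9.37 and 9.29, and its pSHR arrays 10.26 and 11.60. AT1G80320 read 5.83 and 6.04 against 8.24 and 8.78, a difference of -2.57 ± 0.36 (adjusted p = 0.00306), with p35S at 5.59 and 5.56. These genes differ from the first 3 in which of the 2 lines stood away from the rest. The others were SETH6 (-3.08), AT5G20640 (-3.07), AT1G53340 (-2.96), AT2G17350 (-2.85), AT1G54200 (-2.84), AT3G45160 (-2.83), AT2G28240 (-2.81), AT4G02850 (-2.76) and AT3G26800 (-2.58). Over the 15, pSCR had the lowest mean of the 5 populations for 8 and pWOL the highest for 9. Here too the choice of the genes on the same arrays favours these ranks. Without 1 array, 12 to 13 of the 15 remained called.

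**Figure D3:**
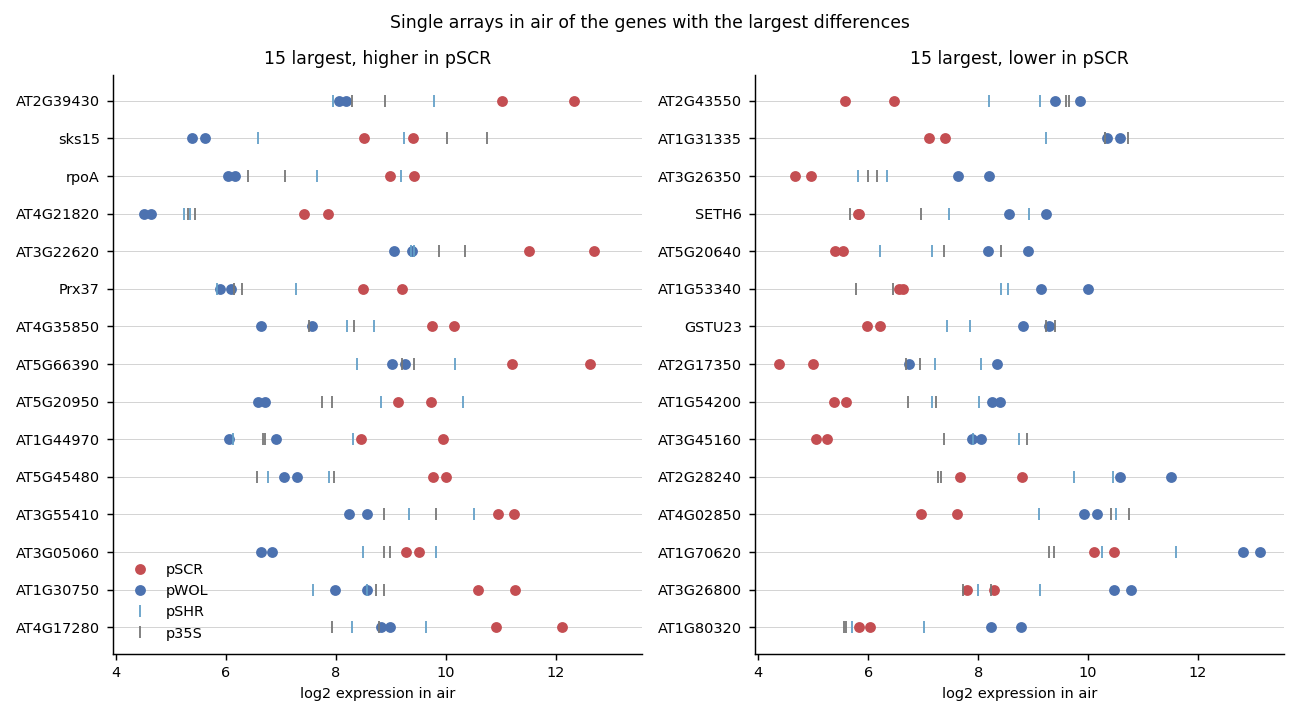
Single arrays in air, in log2 expression, of the 15 named genes with the largest difference in each direction; red and blue points are the pSCR and pWOL arrays and ticks are the pSHR and p35S arrays. In the left panel the blue points lie lowest for most genes. In the right panel some genes have p35S ticks near blue (AT2G43550, GSTU23) and others have p35S ticks below red (AT1G70620, AT1G80320). The pSHR ticks often lie elsewhere, as for GSTU23, where they are between red and blue.

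Of 10 measured markers on the stele regulator, phloem and xylem lists, 2 were called, both lower in pSCR, against 4.62% called lower among all single-gene probe sets. Of the 6 measured genes of 29 on the stele regulator list, CLE41 was called. CLE41, a peptide made in the phloem that keeps the vascular stem cells dividing, read 5.79 and 6.09 in pSCR and 8.04 and 8.81 in pWOL, a difference of -2.48 ± 0.37 (5.6-fold, adjusted p = 0.0039), and it was called without any one of the 4 arrays. The other 5 were PHV (-0.34), AT5G02460 (PEAR2, -0.25), IAA20 (-0.13), IAA30 (-0.06) and LHW (0.18). Of 2 measured phloem genes of 18, SWEET11, a sucrose exporter, read 8.26 and 8.71 in pSCR and 9.50 and 10.31 in pWOL, a difference of -1.42 ± 0.37 (adjusted p = 0.0335). It was called without pWOL array 1 but not without any other single array, where its adjusted p reached 0.225. OPS was at 0.30 and not called. Both measured xylem genes of 23, GUT2 (also IRX10, a xylan synthesis enzyme, -0.75 ± 0.33) and IRX15 (-0.59 ± 0.33), had lower means in pSCR and were not called. None of the 12 pericycle transport genes was measured by a named probe set. The pWOL means of CLE41 and SWEET11 in air were 8.42 and 9.90, and their p35S means were 7.99 and 10.29. In both genes pSCR had the lowest mean of the 5 populations, at 5.94 and 8.48. The 2 calls therefore show low levels in pSCR. For CLE41 the pWOL mean was also the highest of the 5, above total RNA (7.85) and pSHR (7.65), while for SWEET11 the p35S mean was the highest. What the 2 calls say about the label of the pWOL line was not tested. The probe sets of most defining vascular genes were not analysed here by name.

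Markers of neighbouring tissues were counted in the same way. Of 3 cortex genes, AT1G09750 was lower in pSCR, with 9.41 and 9.43 against 10.31 and 10.83 in pWOL, a difference of -1.15 ± 0.32 (adjusted p = 0.0392) that was not called once any one of the 4 arrays was left out (adjusted p up to 0.226). AT1G62500 (CO2, -0.05) and AT1G62510 (0.28) were not called. None of the 4 measured root hair and epidermis genes of 25 was called, with EXPA7 at 0.26, AT3G49960 at 0.49, AT4G26010 at 0.55 and EXPA18 at -0.73. All 4 were read well above the low end of the arrays in both lines (7.92 to 9.81), and the part of RNA from other cells in the results was not tested. The 1 measured root cap gene of 5, AT1G65570, was at 1.26 ± 0.39 (adjusted p = 0.058). In such samples, fewer cells of a type and less RNA per cell cannot be told apart.

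Some families whose names the gene table gives were picked after their values were seen, and their counts are a description, to be read against 3.21% higher and 4.62% lower among all single-gene probe sets. Of 7 measured tubulin genes, 3 were higher in pSCR and none lower: TUA6 by 1.83 ± 0.42, TUB7 by 1.63 ± 0.39 and TUB9 by 1.34 ± 0.31 (adjusted p = 0.0194, 0.0231 and 0.0198). TUA6 read 11.16 and 11.28 in pSCR and 9.35 and 9.42 in pWOL, and its p35S arrays were at 11.76 and 12.05, so pWOL was the low population. Tubulin genes are close in sequence, so their probe sets may share signal. SPR1 and SP1L5, of the SPIRAL1 family of microtubule-associated proteins, were lower, by -0.83 ± 0.23 and -0.85 ± 0.21 (adjusted p = 0.0382 and 0.0276). Of 4 subunit genes of ATP-citrate lyase, which makes cytosolic acetyl-CoA, 3 were higher: ACLB-1 by 1.82, ACLA-2 by 1.11 and ACLA-1 by 0.93. All 3 had their lowest mean in air in pWOL, and none of the 4 was called against pSHR. For ACLA-2 the pSHR, p35S and total RNA means (11.16, 11.26 and 11.09) were above that of pSCR (11.04). For ACLB-1 and ACLA-1 the pSCR mean was the highest. Of 3 genes of the membrane subunit a of the vacuolar proton pump, 2 were higher. VHA-A2 read 10.91 and 11.40 in pSCR and 9.60 and 9.44 in pWOL, a difference of 1.63 ± 0.21 (adjusted p = 0.00206), and VHA-A3 differed by 1.71 ± 0.36 (adjusted p = 0.0144). Of these genes VHA-A2 kept its call without any one of the 4 arrays; ACLA-2 kept it without either pSCR array and ACLA-1 without pSCR array 2, and the others lost theirs without any of the 4, with adjusted p up to 0.208.

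Families with roles in small-molecule conjugation and defence were counted in the same way, against 3.21% higher and 4.62% lower among all single-gene probe sets. Of 47 UDP-glycosyltransferases, 1 was higher in pSCR (UGT72E3) and 5 were lower. UGT71C5, which glucosylates abscisic acid, read 9.70 and 9.38 in pSCR and 11.77 and 11.73 in pWOL, a difference of -2.21 ± 0.41 (adjusted p = 0.0089). UGT76C2, which inactivates cytokinins by glucosylation, read 7.75 and 7.22 against 8.95 and 9.50, a difference of -1.74 ± 0.24 (adjusted p = 0.00269). UGT73B1 (-1.72), UGT87A2 (-1.69) and UGT76D1 (-1.31) completed the 5, of which UGT76C2 and UGT87A2 were called without any one array. Of 14 glutathione transferases, 4 were lower (GSTU23, GSTU20 at -2.18, GSTF4 at -1.05 and GSTL3 at -0.89) and ATGSTF13 was higher by 1.41. The family medians were 0.05 for the UDP-glycosyltransferases and -0.03 for the glutathione transferases, and most members were not called. GSTU20 and GSTU23 kept their calls without any one array, while UGT71C5 lost its call without either pWOL array (adjusted p up to 0.0522).

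LCR68 and LCR69, also known as the plant defensins PDF2.3 and PDF2.2, were the 2 called of 8 measured genes of the low-molecular-weight cysteine-rich family. LCR68 read 10.37 and 10.17 in pSCR and 12.80 and 12.45 in pWOL, a difference of -2.36 ± 0.25 (adjusted p = 0.00087), and LCR69 differed by -2.04 ± 0.38 (adjusted p = 0.00906). Of 15 tetraspanins, a family of small membrane proteins, 3 were lower: TET6 by -2.11 ± 0.30, TET5 by -1.43 ± 0.37 and TET3 by -1.04 ± 0.23. Of 19 expansins, which loosen the wall, 3 were lower and none higher; EXPA4 read 7.07 and 7.15 in pSCR and 8.99 and 8.86 in pWOL, a difference of -1.81 ± 0.33 (adjusted p = 0.00837). Of 11 xyloglucan enzymes, XTH16 was higher (1.48 ± 0.30) and EXGT-A3 lower (-1.16 ± 0.33). LCR68 and TET6 were called without any one of the 4 arrays. EXPA4 lost its call without pSCR array 1 or pWOL array 1 and LCR69 without pSCR array 2 or pWOL array 1 (adjusted p up to 0.0643). TET5 and EXGT-A3 were called in none of these fits, and TET3 and XTH16 in 1 of the 4.

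Named regulators were called in both directions and are also given as a selection made after the values were seen. Higher in pSCR were the receptor kinase FER (1.43 ± 0.42, adjusted p = 0.0486), the ethylene transcription factor EIN3 (1.22 ± 0.26, adjusted p = 0.0156), the bHLH factor ATMYC1 (1.19 ± 0.28) and NRPA1 and NRPA2, the 2 largest subunits of RNA polymerase I (1.69 ± 0.42 and 1.29 ± 0.34). Lower in pSCR were the transcription factors TCP15 (-1.68 ± 0.33), HYH (-1.65 ± 0.43), bZIP44 (-1.40 ± 0.40) and LBD16 (-0.96 ± 0.25), the last a regulator of lateral root initiation. RTE1, which acts on the ethylene receptor ETR1, read 8.32 and 8.28 in pSCR and 9.41 and 9.59 in pWOL, a difference of -1.20 ± 0.18 (adjusted p = 0.0043). BPC1, a GAGA-binding factor, read 7.80 and 7.67 in pSCR, 9.33 and 9.49 in pWOL and 4.23 and 4.23 in pSHR. The 2 vascular lines thus lay on either side of pSCR. Its p35S arrays read 7.53 and 7.21, so pSHR alone was near the low end of the arrays, and the cause was not tested. Of these, RTE1 and BPC1 were called without any one of the 4 arrays, and TCP15 was called in 2 of these 4 fits. EIN3 and ATMYC1 were called in 1 of the 4, and FER, NRPA1, NRPA2, HYH, bZIP44 and LBD16 in none (adjusted p up to 0.201).

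The same 2 lines were compared again in the 4 hypoxia arrays, which share no array with the comparison in air. There limma called 8 probe sets (0.0352%), all lower in pSCR, and 2143 had an unadjusted p below 0.05. The 8 became 42, 1, 0 and 0 without pSCR array 1, pSCR array 2, pWOL array 1 and pWOL array 2 of hypoxia. The 4 named genes called in both treatments were AT3G53100 (-1.90 in air, -2.15 in hypoxia), AT1G32970 (-1.62 and -2.03), AT4G28300 (-1.21 and -1.98) and AT3G19120 (-1.19 and -2.51). Across all 22746 probe sets the differences had an SD of 0.635 in air and 0.412 in hypoxia, and the median standard error was 0.262 in both because the fit shares 1 spread. The 2 sets of differences correlated at r = 0.484 across probe sets, which are not independent replicates.

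Directions were mostly shared. Of the 972 probe sets higher in pSCR in air, 842 (86.6%) also had a higher pSCR mean in hypoxia, and of the 1065 lower ones 864 (81.1%) had a lower one, whereas 50.5% of the uncalled probe sets were higher in hypoxia. The median difference of the higher set was 1.37 in air and 0.37 in hypoxia, and that of the lower set was -1.31 and -0.40. Because the sets were chosen on the air values, some loss of size in other arrays comes with the choice. Of the 972, 177 had an unadjusted p below 0.05 in the same direction in hypoxia and 3 in the opposite one; of the 1065 these numbers were 347 and 6.

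The barrier genes differed among themselves in hypoxia. AT5G66390 read 10.51 and 11.36 in hypoxic pSCR and 8.11 and 8.83 in hypoxic pWOL, a difference of 2.47, and AT4G13580 (2.19), AT1G44970 (2.15), AT4G11290 (1.62) and AT2G39430 (1.55) were also positive. GSO1 read 9.26 and 10.20 in pSCR and 9.36 and 9.87 in pWOL, so its groups overlapped there (difference 0.11). None of the 6 was called in hypoxia (adjusted p from 0.168 to 0.964). The change of the difference between treatments, tested by limma, was called for no probe set (2254 had an unadjusted p below 0.05, and the lowest adjusted p was 0.111). Without 1 array this count was 7 (without pSCR control array 2), 1 (without pSCR or pWOL hypoxia array 1) or 0. For GSO1 the change was -1.79 ± 0.46 (adjusted p = 0.252) and for AT2G43550, from -3.61 in air to -0.52 in hypoxia, it was 3.09 ± 0.49 (adjusted p = 0.111). A hypoxia array stood apart in the 25S ribosomal RNA control, pSCR array 2 at 10.18 against 14.24 in pSCR array 1. Without that array limma called 1 probe set in hypoxia and 0 for the change between treatments.

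**Figure D4:**
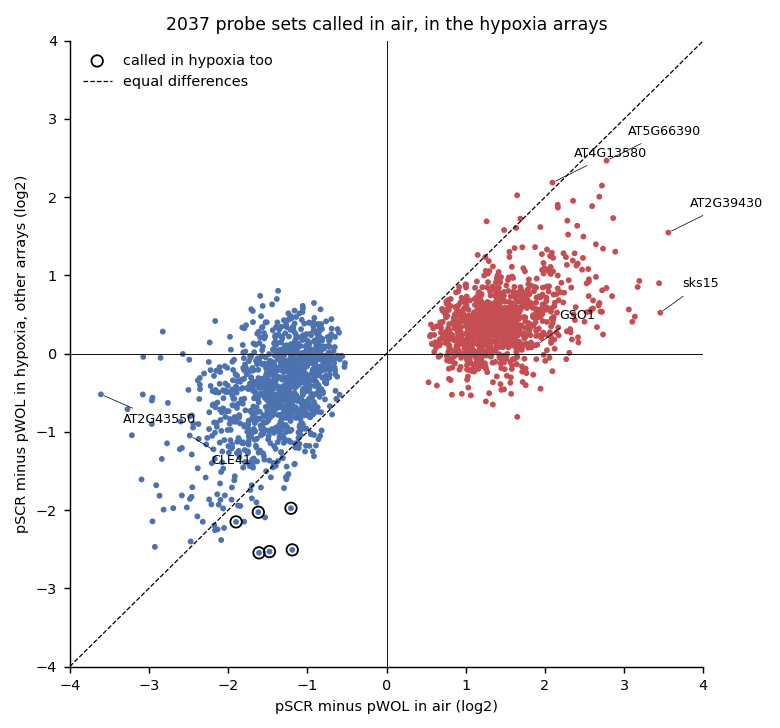
The 2037 probe sets called in air, with the pSCR minus pWOL difference in air on the x axis and the same difference in the hypoxia arrays on the y axis, both in log2 units. Most red points (higher in pSCR in air) lie above 0 and most blue points below it, mostly nearer to 0 than the dashed line of equal differences; circles mark those called in hypoxia too.

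Against the other vascular line, pSHR, limma called 721 probe sets in air (3.17%), 309 (1.36%) higher and 412 (1.81%) lower in pSCR; this comparison shares the pSCR arrays, so its values are not independent of those above. The count was 96 without pSCR array 1, 49 without pSHR array 2 and 0 when the 4 arrays were fitted alone. Of the 15 largest genes towards pSCR, 8 were also called against pSHR, and of the 15 largest towards pWOL, 9 were. Among the 6 barrier genes, 4 were called against pSHR (AT2G39430, AT5G66390, AT4G13580 and GSO1), with adjusted p from 0.0307 to 0.0482. For AT1G44970 and AT4G11290 pSHR array 1 read 8.31 and 8.84, close to or above the lower pSCR array (8.45 and 8.72), and these were not called.

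The called genes also differed in annotated length. The median span of the gene was 3012 bases for the 434 single-gene probe sets higher in pSCR, 2027 for the 624 lower ones and 2092 for those not called. The genes were divided by span into 5 classes of equal size. From the shortest to the longest class, the share called higher went from 0.778% to 6.83%, and the share called lower was 4.22% in the shortest, 5.67% in the middle and 2.60% in the longest class. The called genes also had higher levels, with medians of 8.41 and 7.51 against 5.96 for those not called. Amplification from 400 pg of RNA in 2 rounds shortens products towards the 3 prime end, and the control probe sets for this gave no single direction. The 3 prime minus 5 prime difference of GAPDH was 3.95 and 4.14 in pSCR and 4.40 and 5.07 in pWOL, that of actin was 3.34 and 3.32 against 2.42 and 2.58, and that of ubiquitin overlapped between the lines. The part of gene length and RNA quality in the calls was not tested.

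**Figure D5:**
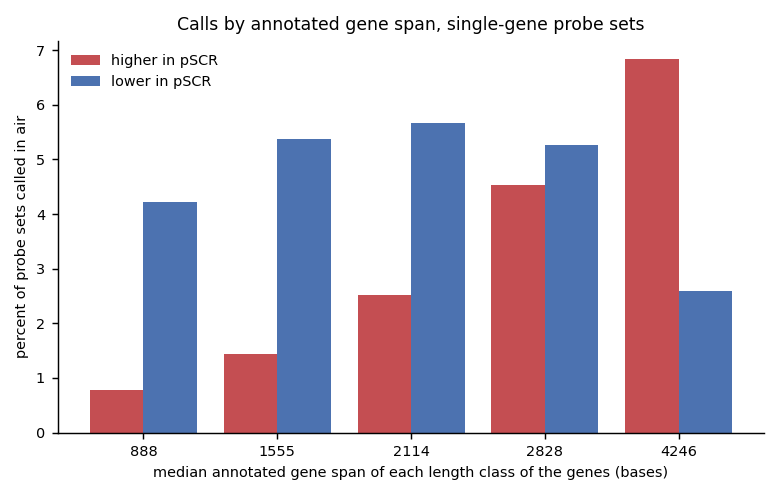
Percent of single-gene probe sets called in air in each of 5 classes of genes by annotated span, with the median span of each class in bases on the x axis; red bars are probe sets higher in pSCR and blue bars those lower. The red bars climb from 0.778% to 6.83%, while the blue bars stay between 4.22% and 5.67% and drop to 2.60% in the longest class.

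The replicate arrays of a line correlated at r = 0.977 in pSCR and 0.980 in pWOL across probe sets, and arrays of different lines at 0.941 to 0.944 in air and 0.964 to 0.976 in hypoxia. No array duplicated another. Whether the replicates are separate cultures is not in the labels, and the p-values then reflect no more than how far these arrays scatter, which may be technical. The low-oxygen response list gave 1 call in air of 15 measured genes, where 7.83% of all single-gene probe sets were called: AT5G26200 at -0.75 ± 0.19 (adjusted p = 0.0298), a call that was lost when any of the 4 arrays but pWOL array 1 was left out. No gene of the cell cycle list (3 measured) or the cytokinin list (2 measured) was called.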

How the data were processed

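The data were 20 arrays in 10 groups of 2, each grouped by its title. The deposited log2 values per probe set were made by the authors with RMA and the package affy, per the submitters' processing notes; their versions, the chip definition and the build were not given in the sources used here. RMA draws weak signals towards a floor, so dim genes show too small a difference. Precision is limited by the number of arrays. The 64 control probe sets were left out.

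A mean per group was fitted to all 20 arrays with limma (3.58.1, R 4.3.3), empirical Bayes moderation (residual df 10, prior df 3.30) and Benjamini-Hochberg adjustment over 22746 probe sets. The fit was tested on simulated data. Named genes were single-gene probe sets called at an adjusted p below 0.05 whose arrays did not overlap, the 15 largest per direction, and the members of marker lists. The comparison, the lists and the added families were chosen with earlier results of these data known. Gene names came from the platform annotation and the TAIR10.1 gene table (13436 of 13513 single-gene probe sets matched); 503 probe sets had several genes and 8730 none listed. The tables hold no descriptions, so families were found by words in synonyms. Of 244 list entries 51 were measured; the names of list members shown by locus code, and peroxidase and dirigent membership, come from general knowledge. Same-numbered arrays of the 2 lines deviated with r = 0.0051 in air, so numbers were not taken as pairs.

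Alternatives were a replicate block, the compared arrays or the arrays of 1 treatment alone, dropping the dimmest 25%, quantile normalization, median centring, trended robust moderation, and leaving out each array.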

Additional observations from a re-analysis of the deposited data

How the results depend on the processing

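Only 2 arrays per group limit every result. In air the count of 2037 went to 2107 with the replicate block, 1660 with the compared arrays alone, 2144 with the air arrays alone, 2469 without the dimmest 25% of probe sets, 2036 after quantile normalization, 2214 after median centring and 2182 with trended robust moderation, and ranged from 474 to 989 when 1 array was left out. The 6 higher members of the barrier list ranged from 0 to 5 when 1 array was left out. In hypoxia the 8 calls became 13 with the replicate block, 0 with the compared arrays or the hypoxia arrays alone, 34 without the dimmest probe sets and 26 with trended robust moderation, and ranged from 0 to 42 without 1 array. The difference between treatments gave 0 to 7 calls without 1 array and 0 otherwise, and pSCR against pSHR gave 0 with the compared arrays alone and 49 to 648 without 1 array; the settings that use fewer arrays estimate the spread from fewer, and for the others the cause was not tested.

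Of 96 named genes called in air, none changed sign in any setting; 93 remained called with the replicate block, 78 with the compared arrays alone, 89 after median centring, and 26 in all 4 fits that left out 1 air array. The replicate block ended the calls of FER (adjusted p = 0.0525), EXGT-A3 (0.0519) and RTH (0.0548) by limma; median centring ended those of AT1G09750, AT5G26200, EXGT-A3, AT2G41480, RTH, bZIP44 and SPR1. Genes near 0 that were never called turned sign. After median centring AT1G14580 was at 0.0486, IAA30 at 0.0461 and AT1G62500 at 0.0533. Over the fits without 1 air array the differences ranged from -0.54 to 0.11 for AT4G28100, -0.29 to 0.18 for AT1G14580, -0.26 to 0.34 for AT5G41920, -0.19 to 0.0829 for IAA30, -0.25 to 0.86 for OPS, -0.33 to 0.88 for AT1G62510, -0.15 to 0.0495 for AT1G62500, -0.0257 to 1.01 for AT3G49960 and -0.023 to 0.55 for EXPA7.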
